A study of Mus musculus with 24 samples.

Results

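The genes described are those of the cytosolic ribosomal proteins, the proteins that with ribosomal RNA make up the ribosomes of the cytoplasm. A gene was a member if its symbol began with Rpl or Rps and a number, or was Rplp0, Rplp1 or Rplp2, and if at least 1 array probe was annotated to that gene alone. The S6 kinases and the paralogs Rpl39l, Rps4l and Rps27l were excluded by name. This gave 49 genes on 55 probes, of 8973 named genes and 17440 features in all, a feature being a named gene or a probe without a single gene name. Of the members, 29 belong to the large subunit, 15 to the small subunit and 2 to the stalk of the large subunit. The other members are the copies Rpl7l1 and Rpl37rt and the gene Rps19bp1, whose product binds Rps19 and is not a part of the ribosome, although its symbol meets the rule. A further 15 probes were annotated to a ribosomal protein gene together with another gene and were left out, among them the 1 probe for Rplp0.

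RNA came from cells sorted from mouse embryoid bodies, aggregates in which embryonic stem cells differentiate. The 6 groups were cells with Flk1 on the surface (Flk1+) and cells without it (Flk1-) at 84 h, 95 h and 8 d of differentiation, with 4 arrays each and 24 arrays in all. Flk1 is the VEGF receptor encoded by Kdr, which is first made in mesoderm and later in endothelium. Sample RNA (Cy5) was hybridised against RNA of whole mouse pups (Cy3) on two-colour Agilent arrays, and the labels name no stem cell line, genotype or treatment. A level is the log2 ratio of sample over pup reference, after each array's median over its probes was set to 0, and is comparable between groups for 1 gene but not between genes. The labels count the samples in each group from 1 to 4 and do not state separate cultures, so the p-values rest on a spread between samples that may be only technical.

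Each ribosome needs 1 copy of nearly every ribosomal protein, so these genes are among the most strongly transcribed of a growing cell and their messenger RNAs are usually made in similar proportions. Their transcripts typically begin with a run of pyrimidines, the 5′ terminal oligopyrimidine tract, through which mTOR signalling controls their translation. The ribosomal RNA is made by RNA polymerase I and assembled with the proteins in the nucleolus by a separate set of biogenesis factors, many of which are Myc targets. Embryonic stem cells and early progenitors divide fast and make many ribosomes.

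The sequences around the transcription start are shown because a start-site motif that the choice of members did not use stood in more of the members than of all genes, though not in every member. Given here are 20 bases before and 20 bases from the start on the gene's strand, 5′ to 3′, from RefSeq's annotation of mouse build GRCm38.p6, for members with 1 annotated start. Capitals mark the pyrimidine-rich motif CTTTC, read from the terminal oligopyrimidine tract, or its reverse complement GAAAG, and the core of the ETS family motif CCGGAA. The first 5 are the members with the largest differences between the sorts at 84 h among those called, the next 3 are small-subunit members whose 84 h arrays lay close together, and the last 2 are members that rose from 95 h to 8 d. Rps4x, Rps25 and Rpl37a hold neither motif in these 40 bases, and Rps3a1 and Rps28 hold the first only as GAAAG.
Rps3a1 (chr3:86142649-86142688, minus strand): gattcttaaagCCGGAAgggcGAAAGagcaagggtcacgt
Rpl28 (chr7:4792945-4792984, plus strand): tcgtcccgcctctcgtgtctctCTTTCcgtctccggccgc
Rps4x (chrX:102189372-102189411, minus strand): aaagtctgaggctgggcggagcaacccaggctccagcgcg
Rpl13a (chr7:45128726-45128765, minus strand): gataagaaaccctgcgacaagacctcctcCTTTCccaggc
Rpl4 (chr9:64173367-64173406, plus strand): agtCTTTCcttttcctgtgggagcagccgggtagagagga
Rps25 (chr9:44407694-44407733, plus strand): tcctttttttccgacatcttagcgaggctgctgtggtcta
Rps26 (chr10:128626487-128626526, minus strand): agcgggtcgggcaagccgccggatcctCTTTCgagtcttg
Rps28 (chr17:33824543-33824582, minus strand): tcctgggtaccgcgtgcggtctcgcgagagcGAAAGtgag
Rpl37a (chr1:72711240-72711279, plus strand): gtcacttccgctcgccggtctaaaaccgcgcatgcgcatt
Rpl38 (chr11:114668560-114668599, plus strand): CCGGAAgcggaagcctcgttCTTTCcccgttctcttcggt

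A start was found for 39 of the 49 members. Over 50 bases before to 50 bases after the start, CTTTC stood on the gene's strand in 20 of these 39 members (51.3%), against 14.6% of the 27025 genes with a start in the table. On either strand it stood in 66.7% of the members and in 26.2% of all genes, and CCGGAA on either strand in 25.6% and 9.24%. Among the members, the sets that behaved differently on the arrays held it in similar shares. It stood on the gene's strand in 8 of 14 members that were lower in Flk1+ cells at 84 h, in 5 of 8 that rose by 8 d and in 9 of 19 others, and members of the first 2 sets overlap. A match describes these letters only, and the promoter windows carry no measurement in this study.

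The median ribosomal protein gene lay slightly above the pup reference in each of the 6 groups. For 28 of the 49 members all 6 group means were above 0. In Flk1+ cells at 84 h 30 of the 49 means were above 0 and the lowest was -1.65, and in the other groups 40 to 48 were above 0. The median member was at 0.40 in Flk1- cells at 84 h, at 0.32 (Flk1+) and 0.38 (Flk1-) at 95 h, and at 0.36 and 0.42 at 8 d. It was lowest, at 0.12, in Flk1+ cells at 84 h. By array, the median over members at 84 h was 0.25, -0.04, 0.25 and -0.11 in Flk1+ cells and 0.42, 0.35, 0.42 and 0.37 in Flk1- cells, so arrays 2 and 4 of the Flk1+ cells were the only 2 of the 24 with a median under 0. The range of a member's 6 group means had a median of 0.51, and 0.31 over the 4 groups at 95 h and 8 d. In bulk samples, fewer cells of a type and less RNA per cell cannot be told apart. Ribosomal protein genes have many near-identical processed copies in the genome, so some of a probe's signal may come from a copy.

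**Figure D1:**
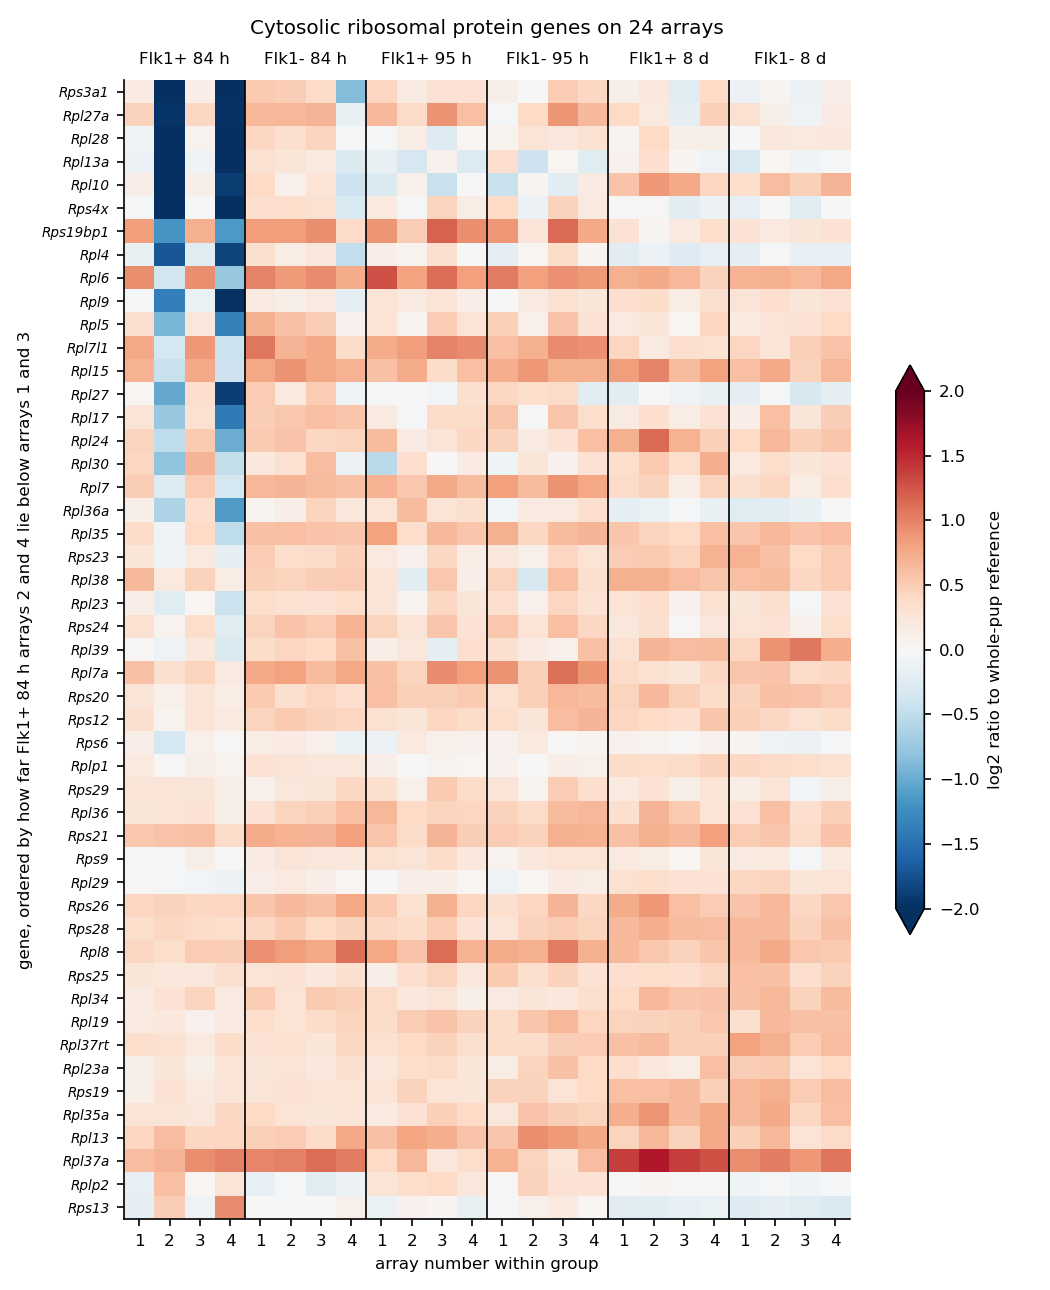
Levels of the 49 ribosomal protein genes on the 24 arrays, as log2 ratio to the whole-pup reference (colours stop at -2 and 2). Genes run from those lowest on arrays 2 and 4 of Flk1+ 84 h relative to arrays 1 and 3 (top) to those without such a gap; 15 genes show a gap over 1, and no array but these 2 has a member under -1.

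Across the series, the array values had an SD from 0.56 to 1.01, highest on arrays 2 and 4 of the Flk1+ 84 h cells, and the precision is limited by 4 arrays per group. Kdr, the gene of the sort, was above 0 on every Flk1+ array and below 0 on every Flk1- array. On arrays 1 to 4 of Flk1+ 84 h it was 1.80, 0.04, 1.43 and 0.67. At 84 h the mean level of 4 measured mesoderm markers (of 6 listed) lay between 2.22 and 3.04 on the Flk1+ arrays and between 0.60 and 1.48 on the Flk1- arrays. That of 6 embryonic stem cell markers (of 8) lay between 0.44 and 1.07 and between 1.84 and 1.96, and that of 5 endothelial markers (of 7) was below 0 on all 8 arrays. That of 5 endoderm markers (of 6) lay between -1.56 and -1.43 on the Flk1+ and between -0.58 and -0.38 on the Flk1- arrays, with no overlap. Endoderm, cardiac muscle and leukocyte markers had a mean below 0 on all 24 arrays. For endoderm this mean hides genes on both sides of 0. In Flk1- cells at 84 h Ttr and Apoa1 were at -3.34 and -4.00, and Foxa2, Sox17 and Cdh1 at 3.04, 0.56 and 1.23. The part of these marker differences in the differences of ribosomal protein genes between the sorts was not tested. Earlier results named arrays 2 and 4 of Flk1+ 84 h and array 4 of Flk1- 84 h as standing apart, and 84 h results are therefore given with and without these 3.

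At 84 h, 17 of 49 ribosomal protein genes were lower in Flk1+ than in Flk1- cells, 0 were higher and 32 did not pass (limma, adjusted p under 0.05 after Benjamini-Hochberg over all features). Of all features, 8.18% were called lower and 5.3% higher. The median difference of the members was -0.36, against 0.00 over all features, and 46 of the 49 differences were negative. The large subunit held 13 of the 17 (of 29 members, median -0.54) and the small subunit 4 (of 15, median -0.21). The arrays of both sorts did not overlap for 18 members, where 17.4% of all features did not overlap.

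The large differences came from arrays 2 and 4. Rps3a1, a small-subunit protein on the side where messenger RNA leaves the ribosome, was at 0.16, -3.59, 0.14 and -3.30 on Flk1+ arrays 1 to 4 and at 0.52, 0.49, 0.38 and -0.87 on Flk1- arrays 1 to 4. Its arrays 2 and 4 lay far below all others, array 4 of the Flk1- cells was next, and the sorts overlapped. Its difference was -1.78 (SE 0.59, limma adjusted p = 0.049), a 3.44-fold lower level.

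Rpl28, a protein of the large subunit, was at -0.08, -2.36, 0.07 and -2.37 in Flk1+ and at 0.42, 0.32, 0.44 and -0.04 in Flk1- cells. Rps4x, the X-linked form of a small-subunit protein, was at -0.02, -1.99, -0.04 and -2.64, against 0.33, 0.36, 0.31 and -0.30. In both genes arrays 1 and 3 of the Flk1+ cells lay somewhat below Flk1- arrays 1 to 3, without overlap, and arrays 2 and 4 far below them. The differences were -1.47 (SE 0.38, adjusted p = 0.016) for Rpl28 and -1.35 (SE 0.38, adjusted p = 0.026) for Rps4x.

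Rpl13a, which apart from its place in the large subunit takes part in silencing translation after interferon-gamma, was at -0.11, -2.18, -0.07 and -2.13 in Flk1+ and at 0.31, 0.24, 0.19 and -0.30 in Flk1- cells. Rpl4, which reaches into the tunnel through which the new protein leaves, was at -0.14, -1.71, -0.25 and -1.86, against 0.32, 0.16, 0.22 and -0.50. The pattern over the 8 arrays was the same in order of the arrays that stood low: Flk1+ 2 and 4, then Flk1- 4. The differences were -1.24 (SE 0.35, adjusted p = 0.025) and -1.04 (SE 0.28, adjusted p = 0.021). The other members called lower were Rpl9, Rpl17, Rpl27, Rpl5, Rpl15, Rpl7, Rpl35, Rpl39, Rpl8, Rpl23, Rps24 and Rps23, with differences from -0.95 to -0.39. Rpl27a (-1.23, adjusted p = 0.052) and Rpl10 (-1.05, adjusted p = 0.060) had differences as large as that of Rpl4 and did not pass.

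**Figure D2:**
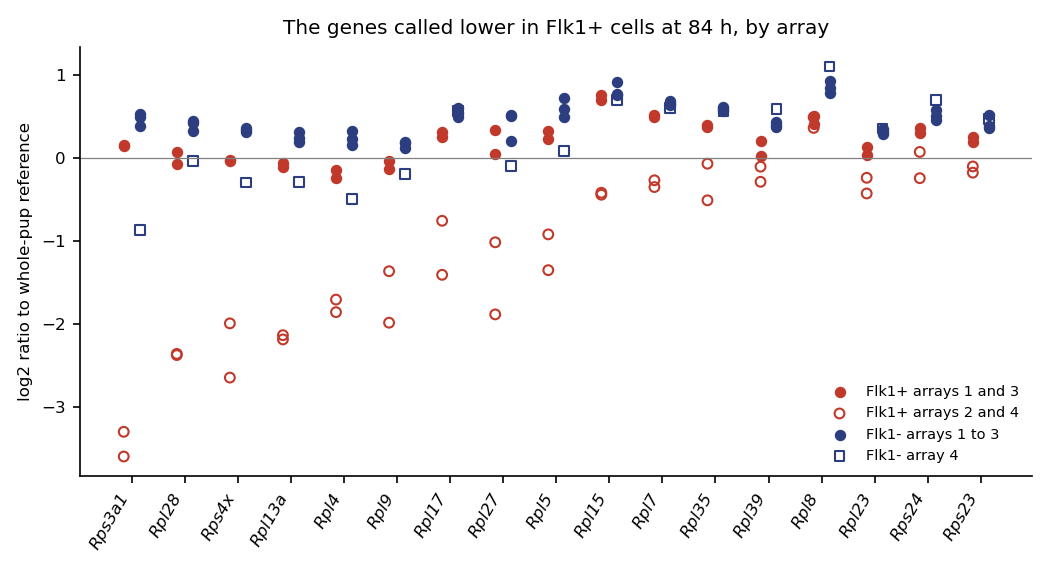
The 17 ribosomal protein genes called lower in Flk1+ cells at 84 h, each point 1 array (log2 ratio to the whole-pup reference). Open red circles (Flk1+ arrays 2 and 4) fall to -3.59 in Rps3a1. Filled red circles (arrays 1 and 3) lie nearer to the filled blue Flk1- points, and in most genes below them. The open square is Flk1- array 4.

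Without the 3 arrays, 1 of 49 members was called lower (Rpl4, difference -0.43, SE 0.12, adjusted p = 0.042) and 0 higher, with 6 at an unadjusted limma p under 0.05 and a median of -0.16. Of all features, 4.84% were then called lower and 1.9% higher, and 3503 of 17440 had an unadjusted limma p under 0.05. Rpl28 (-0.40, SE 0.13), Rps4x (-0.36, SE 0.15) and Rpl8 (-0.39, SE 0.14) did not pass (limma adjusted p = 0.063, 0.17 and 0.10). Their differences were nearly as large as that of Rpl4. The few arrays left did not overlap, which also held for most other members. Rpl8 had the lowest adjusted p of the members with all arrays (limma, 0.0094), and its Flk1+ arrays 2 and 4 overlapped arrays 1 and 3. Without Flk1+ arrays 2 and 4 alone the count was also 1, and the difference of Rps3a1 was 0.02. Leaving out single arrays gave 3 (Flk1+ array 2), 1 (Flk1+ array 4), 28 (Flk1+ array 1), 27 (Flk1+ array 3), 5 (Flk1- array 1), 5 (Flk1- array 2) and 7 (Flk1- array 3) calls. With weights estimated per array, which gave Flk1+ arrays 2 and 4 the lowest weights of all 24 (0.070 and 0.097), 3 were called, and with only the 8 arrays in the fit 0. With the replicate number as a block 27 were called, all 17 among them. Apart from the fit without the 3 arrays, the share of all features called was not counted in these fits. Whether it changed alike is therefore not known.

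Not all members were low on arrays 2 and 4. Both arrays lay below both arrays 1 and 3 for 30 of the 49 members (61.2%, against 26.6% of all features and 37.1% of named genes), and by more than 1 for 15 (30.6%, against 6.27% and 9.89%). The 15 held 11 of 29 large-subunit members (37.9%) and 2 of 15 small-subunit members (13.3%), together with Rpl7l1 and Rps19bp1. Of these 15, 10 were called lower at 84 h, and Rpl10, Rpl27a, Rpl6, Rpl7l1 and Rps19bp1 were not. The other 7 members called lower had a smaller gap or none. In 29 members (59.2%) the 2 pairs of arrays lay apart by at most 0.5 or overlapped, a smaller share than the 81% of all features and 75.3% of named genes. These shares describe arrays named after earlier results and carry no test.

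Members without a gap included proteins of both subunits. Rps25, a small-subunit protein needed for translation from several viral internal entry sites, was at 0.24, 0.22, 0.23 and 0.32 on the Flk1+ 84 h arrays. Rps28, at the exit of the messenger RNA channel, was at 0.36, 0.41, 0.38 and 0.35, and Rps26, its neighbour there, at 0.43, 0.45, 0.41 and 0.43. On these genes arrays 2 and 4 could not be told from arrays 1 and 3.

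The direction was the opposite in a few. Both arrays 2 and 4 lay above both others in 5 members (10.2%), a smaller share than the 37.6% of all features and 33.1% of named genes. In none of the 49 was this by more than 1, as it was for 108 of the 17440 features. Rps13, a small-subunit protein, was at -0.19, 0.49, -0.10 and 0.95, and Rplp2, a stalk protein, at -0.17, 0.60, 0.05 and 0.25. In both genes the 2 arrays that were lowest for Rps3a1 were the highest.

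Array 4 of the Flk1- 84 h cells repeated the pattern at a smaller size. It was the lowest of its 4 arrays for 14 of the 15 members with a gap over 1 (93.3%) and for 6 of the other 34 (17.6%), where 31.6% of all features had their lowest value on that array. Across the 49 members, the mean of Flk1+ arrays 2 and 4 minus that of arrays 1 and 3 correlated with Flk1- array 4 minus the mean of arrays 1 to 3 at r = 0.88 (Spearman's rho = 0.73), and across all features at r = 0.56 (rho = 0.44). These correlations are across genes on shared arrays, and genes are not independent replicates. The part that RNA quality, labelling or cell composition had in the low values of these arrays was not tested.

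Other genes of the protein synthesis machinery at 84 h were read from lists, beside the 8.18% of all features called lower and 5.3% called higher, and 4.84% and 1.9% without the 3 arrays. Of 55 mitochondrial ribosomal protein genes, whose products form the separate ribosome of mitochondria, 12 were lower (Mrpl15, -1.34, Mrpl45, -1.19, and Mrpl51, -1.03) and 1 was higher (Mrpl52, 0.46), and 3 and 0 without the 3 arrays. Among 26 measured genes of the initiation list, which also holds the repressor Eif4ebp1, 4 were lower and 0 higher, and none passed without the 3 arrays. Eif3a, Eif3f and Eif3k were lower by the most (-1.34, -1.29 and -0.93). Of 69 ribosome biogenesis genes 5 were lower and 3 higher, and 1 and 1 without them. The elongation list also holds the release factors Etf1 and Gspt1 and the kinase Eef2k. Of its 9 genes 1 was lower, of 13 polymerase I and Myc genes 2 and of 11 S6 kinase and mTOR genes 1, with 0 higher. Without the 3 arrays 0 were lower in these lists and 1 was higher (Myc, 0.55, limma adjusted p = 0.016). The initiation and mitochondrial genes thus also lost most calls with these arrays, and the biogenesis genes held calls in shares below those over all features. With all arrays the median difference was -0.28 for the mitochondrial, -0.22 for the biogenesis and -0.21 for the initiation genes. It was negative in the other lists too, beside -0.36 for the members and 0.00 over all features. Without the 3 arrays it was -0.07 (mitochondrial), 0.02 (biogenesis), -0.01 (initiation) and -0.16 (members).

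At 95 h no ribosomal protein gene was called between the sorts. Of 49 members 0 were called (limma) and 0 had an unadjusted p under 0.05 (against 1817 of 17440 features). The differences of Flk1+ minus Flk1- ran from -0.24 (Rpl28) to 0.21 with a median of -0.05, where 2.03% of all features were called. The arrays of both sorts overlapped for all 49 members, while they did not for 4.81% of all features. Rpl4 was at 0.14 ± 0.13 in Flk1+ and 0.07 ± 0.22 in Flk1- cells (SD, n = 4), and Rps3a1 at 0.30 ± 0.10 and 0.26 ± 0.24.

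At 8 d 0 members were called between the sorts, and 0.373% of all features were called. An unadjusted limma p under 0.05 was found for 2 members (against 838 of 17440 features). The median difference was 0.02. The arrays did not overlap for 4 members, against 15.9% of all features. One member stood out by size, Rpl37a, a zinc-binding protein of the large subunit, at 1.38, 1.60, 1.38 and 1.28 in Flk1+ and at 0.92, 1.03, 0.87 and 1.08 in Flk1- cells. All 4 Flk1+ arrays were above all 4 Flk1- arrays. The difference of 0.44 (SE 0.11) had an adjusted p of 0.14 in the fit of all arrays, 0.018 with only these 8 arrays, and 0.00012 with array weights, under which Rps21 (0.15) and Rps25 (-0.15) were called too.

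From 84 h to 95 h in Flk1+ cells, 17 members were called higher and 1 lower, with a median of 0.28, beside 11.2% of all features higher and 8.62% lower. The comparison shares its 84 h arrays with the comparison of the sorts at 84 h. Rps3a1 (1.94, SE 0.59, adjusted p = 0.027), Rpl27a (1.40, SE 0.42, adjusted p = 0.025) and Rps4x (1.36, SE 0.38, adjusted p = 0.020) had the largest differences. Without the 3 arrays 1 member was higher (Rplp2, 0.37, limma adjusted p = 0.039) and 0 lower, beside 3.98% and 1.47% of all features. The median of the members was 0.07, and 9 had an unadjusted limma p under 0.05 (against 3826 of 17440 features). Leaving out single arrays gave 6 (84 h array 2), 6 (84 h array 4), 11 (95 h array 1) and 8 (95 h array 3) calls. The difference of Rpl28, 1.16 with all arrays, was -0.02 without arrays 2 and 4. The rise was not particular to the members. Of 55 mitochondrial ribosomal protein genes 18 were higher and 0 lower (median 0.25). Of 69 biogenesis genes 18 were higher and 5 lower (median 0.29), and of 26 initiation genes 4 and 0 (median 0.22). Without the 3 arrays each of these lists had 1 gene higher and 0 lower, with medians of 0.13, -0.02 and 0.01.

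In Flk1- cells 1 member was lower at 95 h than at 84 h and 0 were higher, with a median of 0.01, where 0.585% of all features were called lower and 1.06% higher. That member, Rpl37a, was at 0.98, 1.00, 1.12 and 1.03 at 84 h and at 0.69, 0.44, 0.26 and 0.62 at 95 h, with no overlap. The difference was -0.53 (SE 0.11, limma adjusted p = 0.019). In Flk1+ cells it fell as well, from 0.61, 0.68, 0.93 and 1.00 to 0.39, 0.67, 0.22 and 0.35 (-0.40, SE 0.11, adjusted p = 0.022), with array 2 at 95 h inside the 84 h range, and without the 3 arrays the adjusted p was 0.12. Without those arrays the Flk1- count was 1 lower and 1 higher (Rplp2, 0.41, adjusted p = 0.017), beside 1.43% and 2.4% of all features. The Flk1- count was 2 without 95 h array 1 and 0 without 95 h array 2, 84 h array 2 or 84 h array 3.

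The change of the difference between the sorts was tested as an interaction. From 84 h to 95 h 0 members were called (limma), and 18 had an unadjusted p under 0.05 (against 2686 of 17440 features). The median change was 0.29, and 0.00573% of all features were called. From 95 h to 8 d 0 members were called and the median was 0.04, where 0.533% of all features were called. An unadjusted limma p under 0.05 was found for 1 member (against 1343 of 17440 features). That 1 member was Rpl37a, whose rise by 8 d was larger in Flk1+ than in Flk1- cells by 0.53 (SE 0.16, adjusted p = 0.24, and 0.05 with array weights).

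From 95 h to 8 d most ribosomal protein genes did not pass, and the share that rose in Flk1- cells was near that of all features. In Flk1+ cells 10 members were higher and 1 was lower, with a median of 0.01, beside 12.8% of all features higher and 9.31% lower. In Flk1- cells 6 were higher and 3 lower, with a median of -0.07, where 9.88% and 7.78% were called. The 6 that rose in Flk1- cells, Rpl29, Rpl34, Rpl37a, Rpl39, Rplp1 and Rps19, also rose in Flk1+ cells, and Rpl7a fell in both. The arrays of 95 h and 8 d did not overlap for 20 members in Flk1+ and 11 in Flk1- cells, against 34.6% and 27.8% of all features, shares of the same order as among the members.

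Rpl37a had the largest rise in Flk1+ cells, and in Flk1- cells its rise was close to that of Rpl39. In Flk1+ cells it went from 0.41 ± 0.19 at 95 h to 1.41 ± 0.13 at 8 d and in Flk1- cells from 0.50 ± 0.19 to 0.97 ± 0.09 (SD, n = 4). The lowest 8 d array of each sort lay above its highest 95 h array. The differences were 1.00 (SE 0.11, limma adjusted p = 1.2e-06, 2.00-fold) and 0.47 (SE 0.11, adjusted p = 0.0056). In Flk1- cells the 8 d level equalled about that at 84 h, 1.03 ± 0.06, so the gene dipped at 95 h, and in Flk1+ cells it ended above its 84 h level of 0.81 ± 0.19.

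Rplp1, 1 of the acidic stalk proteins that recruit the elongation factors, was at 0.13, 0.01, 0.07 and 0.05 at 95 h and at 0.36, 0.34, 0.38 and 0.45 at 8 d in Flk1+ cells. In Flk1- cells it was at 0.08, -0.01, 0.13 and 0.10, and at 0.41, 0.38, 0.35 and 0.30. The times did not overlap in either sort. The rises were 0.32 (SE 0.07, limma adjusted p = 0.0016) and 0.28 (SE 0.07, adjusted p = 0.0049). Its stalk partner Rplp2 had differences of the opposite sign, -0.30 (SE 0.12, adjusted p = 0.080) and -0.33 (SE 0.12, adjusted p = 0.062), which did not pass. Without the 3 arrays of 84 h, which enter this comparison through the shared spread, both were called lower (adjusted p = 0.0094 and 0.0058).

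Rpl34, a large-subunit protein, was at 0.24 ± 0.11 at 95 h and 0.55 ± 0.11 at 8 d in Flk1+ cells, and at 0.24 ± 0.06 and 0.59 ± 0.09 in Flk1- cells (SD, n = 4). The arrays of both times did not overlap in either sort, and the rises were 0.31 (SE 0.09, limma adjusted p = 0.015) and 0.35 (SE 0.09, adjusted p = 0.0083). Rpl39, a small protein in the wall of the exit tunnel, rose by 0.42 (SE 0.15, adjusted p = 0.040) and 0.48 (SE 0.15, adjusted p = 0.023) with overlapping arrays in each sort. Rps19, a small-subunit protein whose loss causes Diamond-Blackfan anemia in people, rose by 0.26 (SE 0.08, adjusted p = 0.018) and 0.23 (SE 0.08, adjusted p = 0.044). Rpl29 rose by 0.23 and 0.27 (SE 0.08 each, adjusted p = 0.039 and 0.018). Over the 8 fits that left out 1 array, the calls of Rpl39 were kept in 3 (Flk1+) and 4 (Flk1-), those of Rps19 in 6 and 3, and that of Rpl29 in Flk1- cells in 5. For none of these 6 genes was the difference between the rises of both sorts called.

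**Figure D3:**
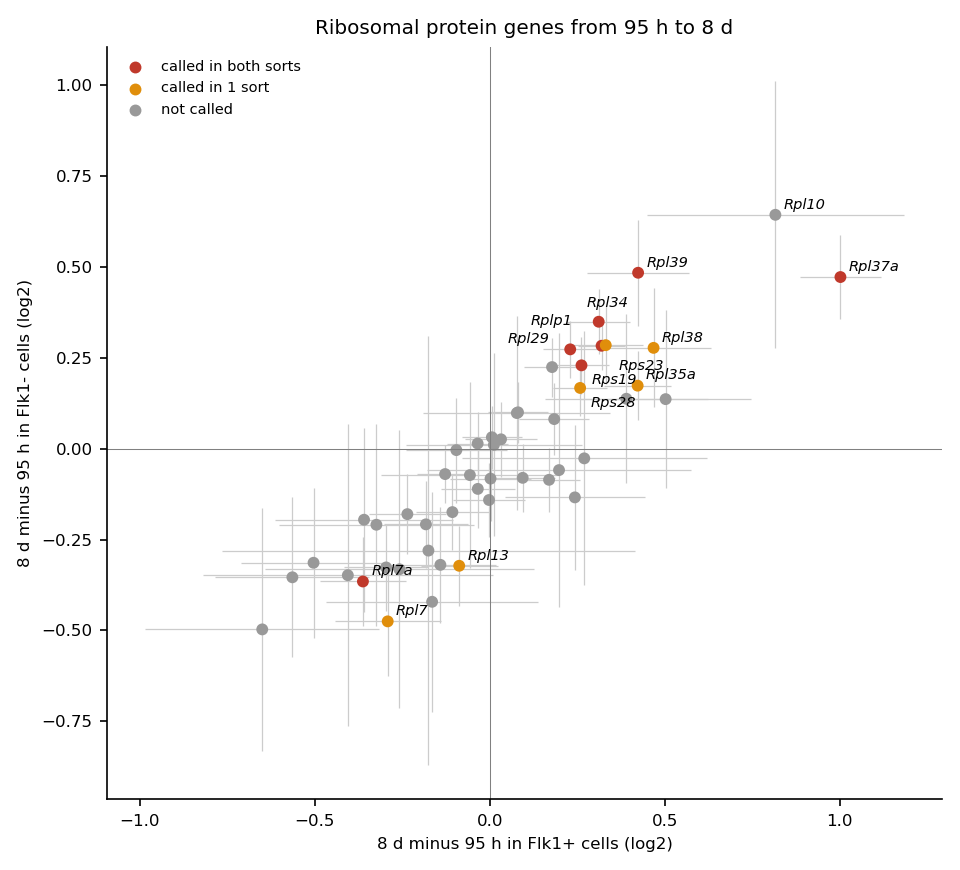
Change of the 49 ribosomal protein genes from 95 h to 8 d (log2) in Flk1+ cells (x axis) against Flk1- cells (y axis), 1 point per gene with SE bars. Rpl37a lies at the far right at 1.00 and 0.47, most genes sit within 0.5 of 0 in both sorts, and Rpl10 has long bars because its 84 h arrays widen the shared spread.

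In Flk1+ cells 4 more were called, Rpl38 (0.47), Rpl35a (0.42), Rps23 (0.33) and Rps28 (0.26). Rpl38, the gene mutated in Tail-short mice, was at 0.26, -0.22, 0.54 and 0.14 at 95 h and at 0.71, 0.71, 0.62 and 0.55 at 8 d, and its rise (SE 0.16, limma adjusted p = 0.044) kept its call in 1 of 8 fits that left out 1 of the arrays. Rpl35a was at 0.34 ± 0.13 and 0.76 ± 0.10 (SD, n = 4) and rose by 0.42 (SE 0.10, adjusted p = 0.0027), a call kept in 8 of 8 such fits. The call of Rps23 was kept in 2. In Flk1- cells these 4 had differences of 0.28 (Rpl38), 0.17 (Rpl35a), 0.29 (Rps23) and 0.17 (Rps28) that did not pass, which does not show that the sorts differ.

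The members called lower in the fit of all arrays were Rpl7a, Rpl7 and Rpl13, proteins of the large subunit. Rpl7a was at 0.70 ± 0.23 at 95 h and 0.34 ± 0.07 at 8 d in Flk1+ cells, and at 0.84 ± 0.26 and 0.48 ± 0.10 in Flk1- cells (SD, n = 4), differences of -0.36 (SE 0.12, limma adjusted p = 0.037) and -0.37 (SE 0.12, adjusted p = 0.043). Rpl7 (-0.47, SE 0.15, adjusted p = 0.032) and Rpl13 (-0.32, SE 0.11, adjusted p = 0.047) fell in Flk1- cells. Each of these calls was lost in 6 or more of the 8 fits that left out an array. Without the 3 arrays of 84 h the members called lower were of both subunits: 5 of the large and 0 of the small subunit in Flk1+ cells, 5 and 2 (Rps13 and Rps4x) in Flk1- cells, and in each sort also Rplp2, Rpl7l1 and Rps19bp1. No test compared the subunits.

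**Figure D4:**
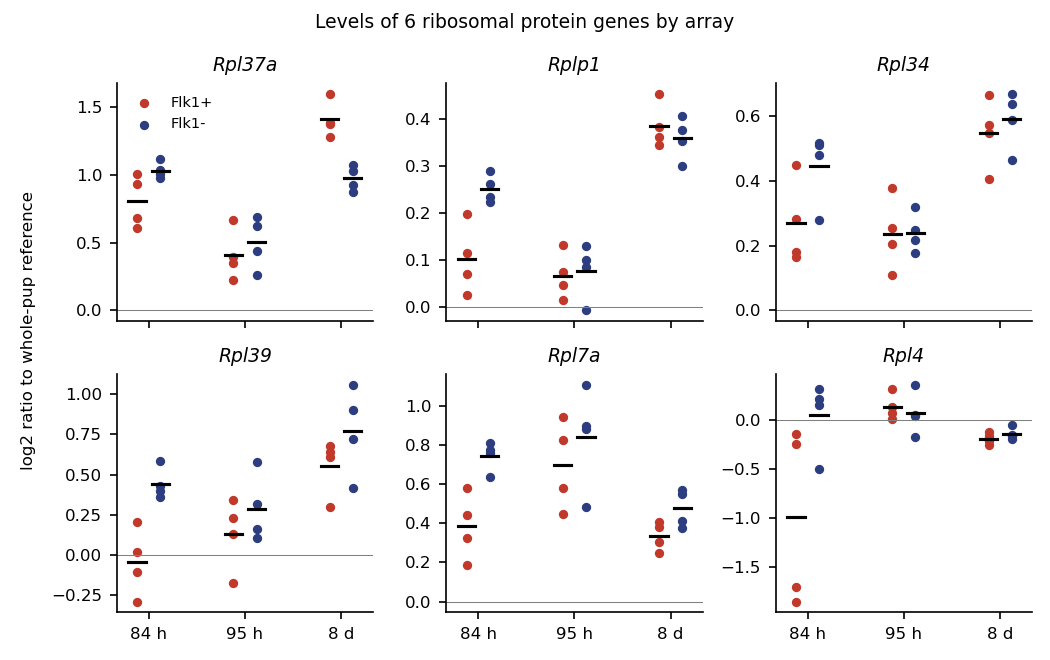
Levels of Rpl37a, Rplp1, Rpl34, Rpl39, Rpl7a and Rpl4 at 84 h, 95 h and 8 d, 1 point per array (log2 ratio to the whole-pup reference) with the mean of 4 as a bar. Rpl37a, Rplp1 and Rpl34 lie higher at 8 d than at 95 h in both sorts without overlap, Rpl7a lies lower at 8 d, and Rpl4 shows the 2 low Flk1+ arrays at 84 h.

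Rpl10, which joins the large subunit in a last step of its maturation, was not called but was singled out after its values were seen. It was at -0.30, 0.10, -0.44 and 0.00 at 95 h and at 0.58, 0.86, 0.75 and 0.43 at 8 d in Flk1+ cells, and at -0.44, 0.06, -0.22 and 0.16, and 0.35, 0.62, 0.47 and 0.68, in Flk1- cells. The times did not overlap in either sort. The differences were 0.82 (SE 0.37, limma adjusted p = 0.12) and 0.64 (SE 0.37, adjusted p = 0.25), and without the 3 arrays of 84 h, which enter here only through the shared spread, the adjusted p was 0.00019 and 0.0019.

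The counts at 8 d depended on the arrays and on the scaling. Without the 3 arrays of 84 h, 14 members were higher and 8 lower in Flk1+ cells (17.7% and 15.9% of all features) and 9 higher and 10 lower in Flk1- cells (14.6% of all features each way). Leaving out Flk1+ arrays gave 7, 4, 6 and 6 calls (8 d arrays 1 to 4) and 7 and 4 (95 h arrays 1 and 4), and leaving out Flk1- arrays gave 4, 5 and 5 (8 d arrays 1, 2 and 4) and 5 and 5 (95 h arrays 3 and 4). With the values as deposited, 6 were higher and 3 lower in Flk1+ and 5 and 3 in Flk1- cells. Of all 17440 features, 1999 were then higher and 2013 lower in Flk1+, and 1625 and 1513 in Flk1- cells. After quantile normalization, 19 were higher and 2 lower in Flk1+ and 12 and 2 in Flk1- cells. Of all features, 2304 were then higher and 2697 lower in Flk1+, and 2136 and 2456 in Flk1- cells. The medians of the members after quantile normalization were 0.17 and 0.06. That of the Flk1- cells thus changed its sign, as did that of the Flk1+ cells as deposited (-0.04). The SD of the array values was lower at 8 d (0.56 to 0.63) than at 95 h (0.71 to 0.78). Rpl37a and Rplp1 in both sorts, Rpl35a in Flk1+ and Rpl34 in Flk1- cells kept their calls in all 16 alternative fits made of each.

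The genes that build ribosomes moved differently over the same days. The list counts below stand beside 9.31% of all features called lower and 12.8% higher in Flk1+ cells, and 7.78% and 9.88% in Flk1- cells. Of 69 measured ribosome biogenesis genes, 48 were lower and 0 higher at 8 d than at 95 h in Flk1+ cells (median -0.70), and 32 and 0 in Flk1- cells (median -0.45), where the median over all features was -0.01 and -0.03. Under quantile normalization 43 were lower and 1 higher, and 24 and 1, where 2697 and 2456 of the 17440 features were lower. Nop56, of the box C/D particles that methylate ribosomal RNA, fell by 1.63 and 1.41 (SE 0.30 each, limma adjusted p = 0.00045 and 0.0021). Gar1 and Nhp2, of the box H/ACA particles that make pseudouridine, fell by 1.57 and 1.59 in Flk1+ cells. In Flk1- cells Nhp2 and Dkc1, the pseudouridine synthase itself, fell by 1.84 and 1.34.

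RNA polymerase I genes went the same way, with 9 of 13 genes of the polymerase I and Myc list lower in Flk1+ (median -0.64) and 3 in Flk1- cells (median -0.38), and 0 higher in either. Polr1e, a polymerase I subunit, fell by 1.22 and Mycn by 1.15 in Flk1+ cells, and Polr1b by 1.01 in Flk1- cells. Of the 55 mitochondrial ribosomal protein genes 8 were lower and 1 higher in Flk1+ and 5 and 0 in Flk1- cells, with medians of -0.24 and -0.17. In Flk1- cells their share called lower was near the 7.78% of all features. Of the 26 genes of the initiation list 7 were lower and 1 higher (Eif3e, 0.68) and 4 and 0. Of the 9 of the elongation list 4 were lower and 1 higher (the kinase Eef2k, 0.47) and 2 and 1. Of 11 genes of the S6 kinases and mTOR 3 and 2 were lower, among them Larp1, which binds terminal oligopyrimidine transcripts (-0.32 and -0.36), and 0 were higher. The medians closest to 0 were those of the cytosolic members (0.01 and -0.07) and of the S6 kinase list (-0.07 and 0.08), and their order depended on the scaling. They were 0.17 and 0.06 for the members and -0.04 and 0.01 for the S6 kinase list after quantile normalization, and -0.04 and -0.09 against -0.11 and 0.06 as deposited. No test set the lists against each other.

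**Figure D5:**
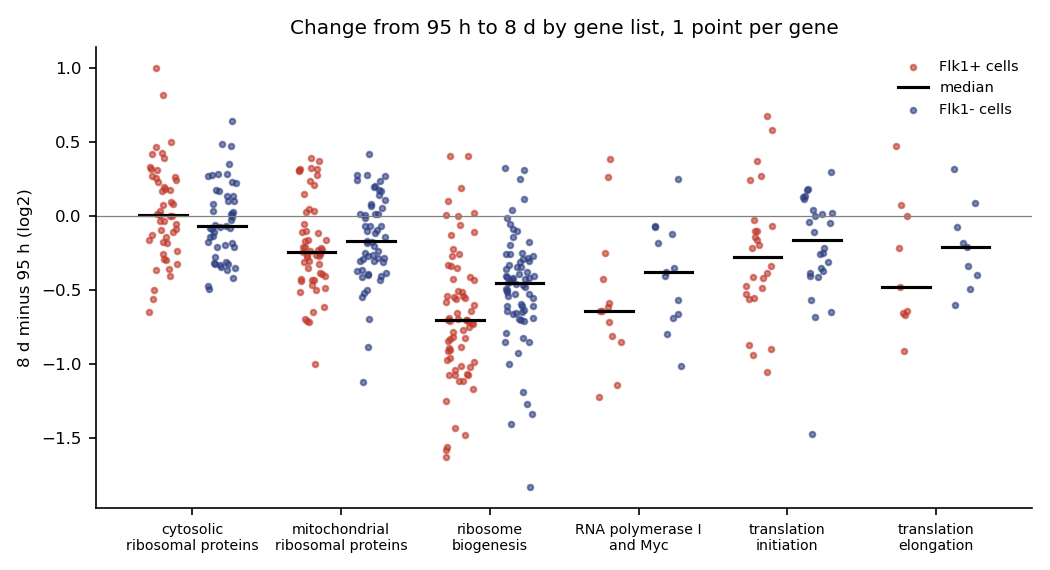
Change from 95 h to 8 d (log2) of the genes of 6 lists, 1 point per gene, in Flk1+ (red) and Flk1- cells (blue), with the median as a bar. With array medians set to 0, the cytosolic ribosomal protein genes have medians of 0.01 and -0.07 (0.17 and 0.06 after quantile normalization), and the ribosome biogenesis genes lie mostly below it (-0.70 and -0.45).

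Markers of cell types moved over the same days. The mean level of 6 embryonic stem cell markers lay between 0.39 and 0.61 (Flk1+) and between 1.31 and 1.56 (Flk1-) at 95 h. At 8 d it lay between -0.01 and 0.12 and between 0.15 and 0.44. That of 4 erythroid markers (of 7 listed) lay between -0.35 and 0.01 and between -0.27 and 0.37 at 95 h, and between 0.60 and 0.68 and between 0.90 and 1.04 at 8 d. That of the 4 mesoderm markers went from between 2.31 and 2.53 to between 0.67 and 1.03 in Flk1+ cells, and from between 1.07 and 1.58 to between 1.07 and 1.16 in Flk1- cells. That of the 5 endothelial markers went from between -0.72 and -0.55 to between -0.11 and 0.16 in Flk1+ cells, and from between -1.18 and -1.03 to between -0.92 and -0.85 in Flk1- cells. These 5 include Kdr, the gene of the sort. At 95 h only Kdr had a higher mean in Flk1+ than in Flk1- cells, and the other 4 had lower means, with 0 called. The mean of 5 cardiac muscle markers went from between -1.72 and -1.54 to between -0.99 and -0.54 in Flk1- cells, and in Flk1+ cells from between -1.37 and -1.13 to between -1.34 and -0.95, with overlap. These means hide genes of 1 list that moved in opposite directions. From 95 h to 8 d in Flk1+ cells Cdh5 went from -3.10 to -0.18 and Kdr from 1.85 to 1.58. Among the stem cell markers there, Klf2 went from -1.95 to 0.11 and Tdgf1 from 3.11 to 0.57. In Flk1- cells Mesp1 went from 3.22 to 0.47 and Hand1 from 0.84 to 2.38. The part of these markers in the changes of the ribosomal protein and biogenesis genes was not tested.

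The paralogs and the binding protein were followed beside their parent genes. Rpl7l1, a copy of Rpl7 that acts in ribosome assembly, had a level of 0.87 ± 0.11 and 0.79 ± 0.17 at 95 h and of 0.31 ± 0.10 and 0.44 ± 0.13 at 8 d (Flk1+ and Flk1-, SD, n = 4), with differences of -0.56 (SE 0.22, limma adjusted p = 0.071) and -0.35 (SE 0.22, adjusted p = 0.30). Rps19bp1 went from 0.87 ± 0.28 to 0.22 ± 0.13 in Flk1+ cells (-0.65, SE 0.33, adjusted p = 0.18) and from 0.75 ± 0.37 to 0.26 ± 0.04 in Flk1- cells, the opposite sign to Rps19, its partner. Rpl37rt, a copy of Rpl37, differed by 0.18 and 0.22 (SE 0.08 each, adjusted p = 0.13 and 0.059). In the fit of all arrays none of these 3 passed between 95 h and 8 d. Without the 3 arrays of 84 h, Rpl7l1 (limma adjusted p = 0.00030 and 0.014) and Rps19bp1 (0.0024 and 0.017) were called lower in both sorts, and Rpl37rt was called higher in Flk1- cells (adjusted p = 0.031).

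Separate probes of 1 gene gave differences of the same sign at 84 h in 5 of the 6 members with 2 probes. The exception was Rpl7, with -1.13 (limma adjusted p = 0.024) on 1 probe and 0.03 (adjusted p = 0.84) on the other, so its call of -0.55 rests on 1 of its 2 probes. The Rpl7 probes had the same sign at 8 d minus 95 h in both sorts, -0.31 and -0.27 in Flk1+ and -0.40 and -0.55 in Flk1- cells.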

How the data were processed

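The authors deposited 1 value per probe and array, per the labels from two-colour arrays with sample RNA in Cy5 and pup RNA in Cy3, handled here as log2 values. The log base, the direction, feature extraction, background correction and normalization are not given in the sources used here, and another log base would multiply every difference by 1 factor. Dyes were not exchanged, so a dye effect on a probe drops out of group differences. Each array's median was set to 0, probes annotated to 1 gene were averaged per gene, and unnamed probes were kept as features. A single model took all 24 arrays and 1 mean for each group (R 4.3.3, limma 3.58.1, lmFit and eBayes, 18 residual and 3.41 prior degrees of freedom), with Benjamini-Hochberg over 17440 features. The code was tested on simulated data. Probe names come from the platform annotation, which can be old, and the Entrez identifiers of all 49 members were found in RefSeq's gene table with 0 changed symbols. Sequences come from RefSeq (GRCm38.p6). Figures used Python 3.11.15 with matplotlib 3.10.9.

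Members, lists, markers and the 3 arrays left out were chosen with earlier results of these data known. Named were, per comparison, up to 5 called members with the largest differences each way, stalk members, paralogs with their parents, up to 3 called genes per related list, and any gene said to be singled out. Equal numbers may pair the sorts, which the sample names do not state. At 95 h and 8 d the deviations of each of the 4 pairs of equal number correlated by over 0.1 (0.107 to 0.417 and 0.146 to 0.437). At 84 h 3 of 4 pairs did (-0.127 to 0.526), and across times none. Arrays of unequal number were not correlated, so a pairing is not established. Alternatives were other scalings, array weights, arrays left out, fits of only the arrays compared, the most variable probe per gene, and the replicate number as a block.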

Additional observations from a re-analysis of the deposited data

Results flagged for a closer look

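Over the 49 members and 6 groups, 294 sets of 4 arrays were examined for 1 array far from the other 3 (by Dixon's ratio), and 16 had such an array, where chance gives about 1 in 20. Of these, 4 were array 4 of the Flk1- cells at 84 h, low in each case: Rps3a1 at -0.865, Rps4x at -0.299, Rpl27a at -0.156 and Rps19bp1 at 0.377. At 84 h the others were the high value of Rpl13 on array 2 (0.617) and the low value of Rps29 on array 4 (0.112) of the Flk1+ cells, and the low value of Rpl34 on array 2 of the Flk1- cells (0.28). At 95 h Rps19 (0.464), Rpl36a (0.637) and Rpl27 (0.32) were high on arrays 2, 2 and 4 of the Flk1+ cells. In Flk1- cells at 95 h Rpl15 (0.87) and Rpl8 (1.05) were high on arrays 2 and 3, and Rpl27 (-0.213) was low on array 4. At 8 d Rpl29 (0.353) and Rps25 (0.415) were high on arrays 2 and 4 of the Flk1+ cells, and Rps9 (-0.0416) was low on array 3 of the Flk1- cells. The cause of these values was not tested.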

How the results depend on the processing

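The count of called members between the sorts at 84 h was 17, and it was 3 with array weights, 1 without the 3 arrays, 1 without Flk1+ 84 h arrays 2 and 4, 0 with only the arrays compared, 1 to 28 with 1 array left out, and 27 with the replicate block. Its median was -0.16 and -0.14 without 3 and 2 arrays. At 8 d it was 3 with array weights and 1 with only the arrays compared. For 95 h minus 84 h in Flk1+ cells it was 18, and 11 with quantile normalization, 0 with array weights, 1 and 1 without 3 and 2 arrays, 0 with only the arrays compared and 6 to 27 with 1 array left out, with a median of 0.073 without 3 or 2 arrays. In Flk1- cells it was 1, and 2 with quantile normalization, with array weights and without 3 or 2 arrays, 0 with only the arrays compared and 0 to 2 with 1 left out. For 8 d minus 95 h in Flk1+ cells it was 11, and 21 with quantile normalization (median 0.17), 17 with array weights, 22 and 21 without 3 and 2 arrays, 17 with only the arrays compared and 4 to 9 with 1 left out. In Flk1- cells it was 9, and 14, 17, 19 and 18 under the first 4 of these, and 4 to 7 with 1 left out. The change of the sort difference from 95 h to 8 d gave 1 call with array weights. The sign turned for Rps3a1 between the sorts at 84 h without Flk1+ arrays 2 and 4 (0.016) and for Rpl28 from 84 h to 95 h in Flk1+ cells without 3 or 2 arrays (-0.018). The replicate block kept all 33 calls of named genes and moved no other count by over 1.5 times. Calls over all features were counted only in the main fit, without the 3 arrays, as deposited and after quantile normalization. Under the other settings the counts of members stand without that share. Apart from fits with fewer arrays, the cause was not tested.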
